A study of Mus musculus with 6 samples.

Results

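The mRNAs described here are the 6 that mouse mitochondrial DNA encodes for complexes III, IV and V of oxidative phosphorylation: CYTB, COX1, COX2, COX3, ATP6 and ATP8. They were chosen by name, as those of the 35976 gene entries of the count table that carry these symbols in capital letters, and all 6 passed the filter on low counts. They belong to the 13 mRNAs of the mitochondrial genome, of which the other 7 (ND1, ND2, ND3, ND4, ND4L, ND5 and ND6) encode subunits of complex I. The RNA came from brown adipose tissue (BAT), a fat depot specialised for making heat, with 3 libraries from wild-type mice (WT) and 3 from mice labelled CarS2-AKO (AKO), all taken after 4 h at 4 °C. AKO mice carried floxed Cars2 and Adiponectin-Cre, which is driven in fat cells, and the tissue also holds other cells. The study calls its controls wild-type littermates and also Flox, and the labels give neither the age nor the sex of the sequenced animals. Its methods give an age range for its experiments as a whole and name male mice for its chow and high-fat feeding experiments, without assigning either to the sequenced tissue. Both groups had the same cold exposure, and BAT of mice kept warm was not analysed here. Cars2, the gene targeted in AKO, was at 786, 459 and 632 CPM in WT and at 220, 248 and 132 CPM in AKO. The log2 fold change of AKO over WT was −1.64 with an SE of 0.23 (adjusted p = 0.000192, edgeR), and the groups did not overlap. CPM are read counts relative to the library total, scaled with TMM factors.

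The inner mitochondrial membrane holds an electron transport chain. Complex III passes electrons from ubiquinol to cytochrome c, complex IV passes them on to oxygen, and complex V, the ATP synthase, uses the resulting proton gradient to make ATP. In brown fat, uncoupling protein 1 lets protons flow back without ATP synthesis, and heat is released. Each of these complexes is assembled from a few subunits made inside the mitochondrion and many encoded in the nucleus. The mitochondrial genome is transcribed as long precursors, which are cut into single mRNAs mostly at the tRNAs that lie between them. The product of Cars2, the cysteinyl-tRNA synthetase of mitochondria, loads the tRNA for cysteine used in translating these mRNAs, and the study examines it as a source of cysteine persulfides.

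In the GRCm38 build, which corresponds to mm10, the 6 genes lie on the same strand of the mitochondrial genome, and 5 of them lie close together. COX1 spans 5328 to 6872, COX2 7013 to 7696, ATP8 7766 to 7969, ATP6 7927 to 8607 and COX3 8607 to 9390. CYTB lies apart at 14145 to 15288. The last 15 bases of each coding sequence in GENCODE release M21 are shown because 2 of the 6 end without a whole stop codon. The stop codon, or the single base of it that the DNA encodes, is in capitals.
COX1: gtaaaagtaaaaTAA
COX2: gcttcaataattTAA
COX3: attgatgaggatctT
CYTB: taaaattatatccaT
ATP6: catgataatacaTAA
ATP8: ttaccccaacaaTAA
COX3 and CYTB end on a lone T, which the poly(A) tail completes to a stop codon in the mRNA. Libraries were made from RNA bound to oligo(dT), which selects RNA with such a tail, and the part of untailed RNA in the counts below was not tested. Cysteine codons (TGT or TGC) number 3 in COX2, 3 in CYTB, 2 in COX3 and 1 in COX1, and there are 0 in ATP6 and 0 in ATP8.

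ATP8 and ATP6 share 43 bases, read in different frames, and both proteins are made from 1 mRNA. The 60 bases that end ATP8 (MT:7910-7969) and the 60 that begin ATP6 (MT:7927-7986) are shown with the shared bases in capitals.
ATP8: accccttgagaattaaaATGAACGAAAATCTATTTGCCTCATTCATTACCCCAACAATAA
ATP6: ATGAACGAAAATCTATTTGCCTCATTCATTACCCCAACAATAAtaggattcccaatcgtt
Reads from this bicistronic RNA were counted under 2 symbols, and the sources used here do not say how a read over the shared bases was assigned. The same RNA joins ATP6 to COX3 by 1 shared base before it is cut there, at a place with no tRNA between the genes.

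The nuclear genome holds annotated copies of mitochondrial DNA, and for some of these mRNAs the copy is identical. On chromosome 1, between 24611535 and 24616197 on the minus strand, GENCODE M21 lists copies of COX2 (Gm28661, 681 of 684 bases, 100% identity), ATP6 (Gm10925, 678 of 681 bases, 100%) and COX3 (Gm28437, 783 of 784 bases, 100%). The last 483 bases of COX1 match Gm29216 there with 1 mismatch, and 43 bases of ATP8 lie in the ATP6 copy. Among the copies kept, CYTB has no such near-identical copy, and its closest match, Gm11410 on chromosome 4, has 81 mismatches over 1142 bases. A stretch of 3 members, bases 301 to 360 of each, is set beside the copy with the most matched bases, with differing bases in capitals, to show which reads could be told apart.
COX2 (MT:7313-7372): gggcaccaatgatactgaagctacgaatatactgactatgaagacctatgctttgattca
Gm28661 (chr1:24615206-24615265, minus strand): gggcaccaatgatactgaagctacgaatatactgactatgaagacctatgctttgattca
COX1 (MT:5628-5687): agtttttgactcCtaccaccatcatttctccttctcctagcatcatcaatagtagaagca
Gm13340 (chr2:22589288-22589347, minus strand): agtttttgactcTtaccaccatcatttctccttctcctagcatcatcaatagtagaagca
CYTB (MT:14445-14504): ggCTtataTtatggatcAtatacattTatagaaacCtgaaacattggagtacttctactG
Gm11410 (chr4:80004289-80004348, plus strand): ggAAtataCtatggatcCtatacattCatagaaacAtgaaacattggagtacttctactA
The stretches differ by 0 bases for COX2, 1 for COX1 and 7 for CYTB. Of 16 copies kept for the 13 mRNAs, 0 are listed in the count table under their names. Matches on 1 chromosome were left out of the search. The sources used here do not say how reads that match both a gene and its copy were treated. The counts of COX2, COX3, ATP6 and ATP8 are therefore uncertain in level, as are those of COX1 over its last 483 bases. Shares and ratios that use these counts carry the same uncertainty, and its part in their fold changes was not tested.

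AKO BAT had higher counts of CYTB, COX2 and COX3 relative to all mRNAs than WT BAT, by 0.57 to 0.87 on the log2 scale. COX2 and COX3 are among those with the identical nuclear copies described above. COX1 and ATP6 did not pass the test, and ATP8, the least counted, was called lower. Among the 6 mRNAs 3 were higher and 1 was lower by edgeR (adjusted p under 0.05), where 20.2% of all 13007 genes tested were higher and 17.5% were lower. Levels below are TMM-scaled CPM with n = 3 per group, and log2 fold changes compare AKO to WT and carry a standard error (SE). The median log2 fold change of the 6 was 0.39, against 0.0088 over all genes tested. For 3 of the 6 every AKO library was above every WT library, as for 25.7% of all genes tested, and for 0 of the 6 every AKO library was below, as for 24.4%. In bulk tissue a change in the number of cells of a type and a change in RNA per cell cannot be told apart.

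**Figure D1:**
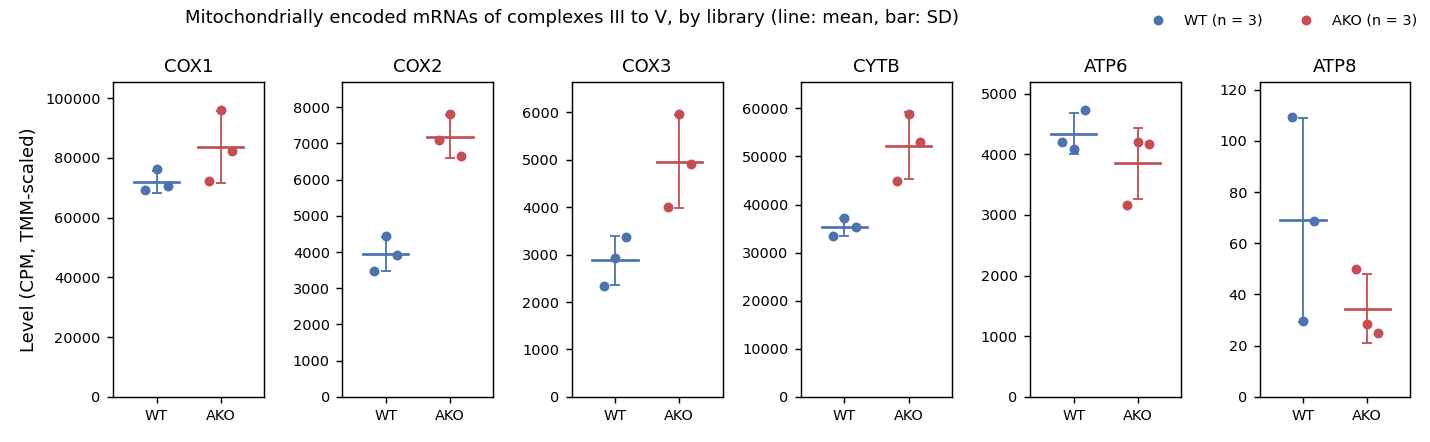
Level of each mRNA (CPM, TMM-scaled, y axes from 0) in 3 WT and 3 AKO libraries, each a point, with the mean as a line and the SD as a bar. COX2, COX3 and CYTB of every AKO library lie above every WT library (COX2 from 6663 to 7825 CPM in AKO and from 3480 to 4436 CPM in WT), and COX1, ATP6 and ATP8 overlap.

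CYTB encodes cytochrome b, the core of complex III that carries both of its quinone sites. It was at 33450, 37111 and 35330 CPM in WT and at 44938, 58922 and 52956 CPM in AKO. All AKO libraries were above all WT libraries, and AKO 1 was the lowest of them. WT averaged 35297 ± 1831 CPM and AKO 52272 ± 7017 CPM (SD, n = 3). The log2 fold change of 0.57 (SE 0.17) passed the test (adjusted p = 0.0171, edgeR). The call was lost without AKO replicate 2 (0.47, adjusted p = 0.0635) and without WT replicate 3 (0.56, adjusted p = 0.0686), and with scaling to the 13 mitochondrially encoded mRNAs in place of all genes (0.31, adjusted p = 0.0521). Over all alternatives its adjusted p ran from 0.000231 to 0.164.

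COX1, COX2 and COX3 form the catalytic core of complex IV, cytochrome c oxidase. COX2 carries the copper centre that accepts electrons from cytochrome c. Its level was 3480, 4436 and 3909 CPM in WT and 7081, 7825 and 6663 CPM in AKO, so that the lowest AKO library was well above the highest WT library. The mean rose from 3942 ± 479 to 7189 ± 588 CPM (SD, n = 3), by 0.87 on the log2 scale (SE 0.15, adjusted p = 0.000681, edgeR). COX3, a core subunit without redox centres, was at 2345, 2936 and 3369 CPM in WT and at 4012, 5962 and 4902 CPM in AKO. Again the groups did not overlap, and the spread in both was wider than for COX2. The mean rose from 2883 ± 514 to 4959 ± 976 CPM (SD, n = 3), by 0.78 on the log2 scale (SE 0.18, adjusted p = 0.00460, edgeR).

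COX1, which holds the haem and copper site where oxygen is reduced, is the most counted of the 6. Its level was 69198, 76142 and 70744 CPM in WT and 72271, 96140 and 82419 CPM in AKO. AKO 1 lay within the WT range, and the other AKO libraries were above it. WT averaged 72028 ± 3646 CPM and AKO 83610 ± 11979 CPM (SD, n = 3). The log2 fold change of 0.22 (SE 0.17) did not pass the test (adjusted p = 0.352, edgeR), and with scaling to the 13 mitochondrially encoded mRNAs it was −0.048 (adjusted p = 0.768). COX2 and COX3 were called higher in each left-out-replicate fit with TMM scaling, with log2 fold changes of 0.79 to 0.95 and 0.63 to 0.92, and COX1 in none. With scaling to the 13 mitochondrially encoded mRNAs COX2 was at 0.62 and COX3 at 0.51, both still called, and the call of COX3 was lost there without WT replicate 1 and without WT replicate 2 (adjusted p up to 0.0992). The adjusted p of COX1 ran from 0.0676 to 0.857 over all alternatives.

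ATP6 and ATP8 encode the subunits of complex V that only mitochondria make. ATP6 lines the path of protons through the membrane part of the enzyme, and ATP8 is a short membrane subunit beside the peripheral stalk. ATP6 was at 4210, 4080 and 4725 CPM in WT and at 3168, 4209 and 4171 CPM in AKO. AKO 1 was below the other libraries, and the remaining AKO libraries fell within the WT range. The log2 fold change of −0.17 (SE 0.15) did not pass the test (adjusted p = 0.397, edgeR). With scaling to the 13 mitochondrially encoded mRNAs ATP6 was called lower, at −0.44 (adjusted p = 0.0291, edgeR), and over all alternatives its adjusted p ran from 0.0136 to 0.809.

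ATP8 held 912, 233 and 503 reads in WT and 417, 224 and 176 reads in AKO, which is 109, 29.7 and 68.7 CPM against 50.03, 28.5 and 25.1 CPM. WT 2 lay among the AKO libraries, so the groups overlapped although ATP8 was called lower. WT averaged 69.2 ± 39.9 CPM and AKO 34.5 ± 13.5 CPM (SD, n = 3), a log2 fold change of −1.001 with an SE of 0.36 (adjusted p = 0.0458, edgeR). DESeq2 gave −1.01 with an adjusted p of 0.186, and without WT replicate 1 edgeR gave −0.51 (adjusted p = 0.274). The call was also lost without WT replicate 3 (adjusted p = 0.0812), without AKO replicate 2 (0.117) and without AKO replicate 3 (0.140). Over all alternatives the adjusted p ran from 3.77e-11, without a filter on low counts, to 0.274. Only 161 bases of ATP8 lie outside ATP6. Both lie on the same mRNA, and ATP6 was not called in the main fit. The call of ATP8 is therefore not read as a fall of that mRNA, and the part of read assignment in it was not tested.

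Of the 7 complex I mRNAs of the same genome, ND2 (log2 fold change 0.45, edgeR adjusted p = 0.0339) and ND5 (0.53, 0.0183) were higher, ND1 (−0.62, 0.0181) was lower and 4 were not called, the median being −0.021. The 13 mRNAs of this genome therefore spanned log2 fold changes from −1.001 for ATP8 to 0.87 for COX2. Neighbours on the genome differed in their calls: COX2 and COX3, both called higher, lie on either side of ATP8 and ATP6. ATP6 did not pass the test, and ATP8 overlapped between groups and lost its call in several alternatives. COX2, ATP6 and COX3 each have an identical nuclear copy. By cysteine codons, ND5 has the most with 6 and was higher (0.53), and ND6 with 4 was at 0.14. Of those with 3 codons, COX2 (0.87) and CYTB (0.57) were higher, and ND4 (−0.021) and ND4L (−0.16) did not pass the test. COX3, with 2, was at 0.78. With 1 codon each, ND2 was at 0.45, COX1 at 0.22, ND3 at −0.038 and ND1 at −0.62, and with 0, ATP6 was at −0.17 and ATP8 at −1.001. A relation between codon number and fold change was not tested.

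**Figure D2:**
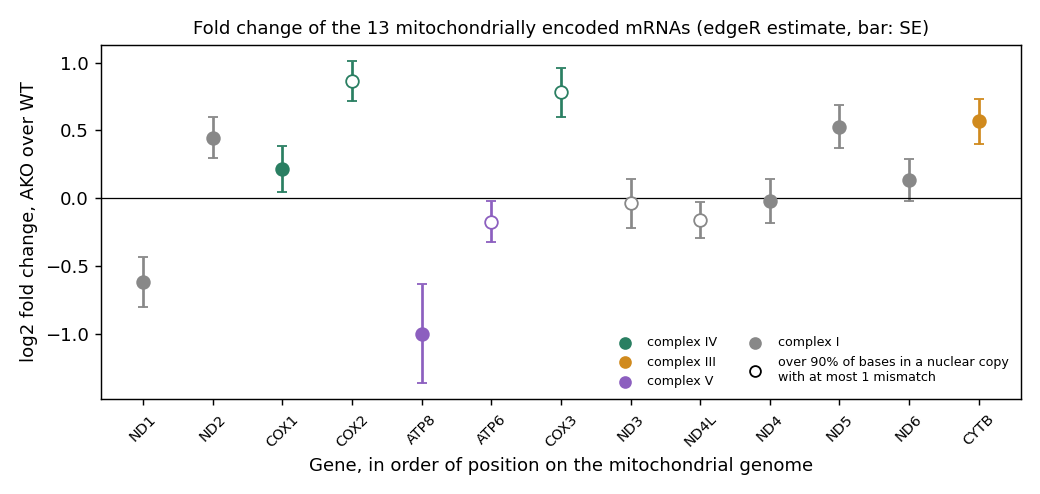
Log2 fold change of AKO over WT (y axis, edgeR estimate with its SE) for the 13 mRNAs in their order on the mitochondrial genome (x axis), coloured by complex. COX2 (0.87), COX3 (0.78) and CYTB (0.57) stand highest and ATP8 (−1.001) and ND1 (−0.62) lowest, and open circles mark COX2, ATP6, COX3, ND3 and ND4L, with over 90% of their bases in a nuclear copy of at most 1 mismatch (63.6% for ND4, 31.3% for COX1 and 21.1% for ATP8, drawn filled).

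Shares of all counts need no scaling factor. The 6 mRNAs took 11.1%, 11.6% and 11.6% of all counts in WT and 13.5%, 17.2% and 16.2% in AKO, a mean of 11.4% ± 0.266 against 15.6% ± 1.94 (SD, n = 3). The groups did not overlap, and AKO 1 was closest to WT. The complex I mRNAs together took 8.97% ± 0.0573 in WT and 10.4% ± 0.920 in AKO. On this scale 4 of the 6 did not overlap between groups, all higher in AKO (29.8% of all genes tested), because COX1 joined COX2, COX3 and CYTB. COX1 took 6.83%, 7.07% and 6.95% of all counts in WT and 7.40%, 9.57% and 8.85% in AKO. The mean share of CYTB was 3.41% in WT and 5.38% in AKO, that of COX2 0.380% and 0.740%, and that of COX3 0.278% and 0.510%. ATP6 took 0.420% in WT and 0.397% in AKO, with overlapping groups. For a single mRNA the two-sided exact permutation test over 20 arrangements gave p = 0.1 for COX1, COX2, COX3 and CYTB, which is the smallest p that 3 against 3 allows, so no share can pass a threshold of 0.05.

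Within the counts of the 13 mitochondrially encoded mRNAs, the make-up differed between the groups. The 6 mRNAs held 55.4%, 56.2% and 56.6% of them in WT and 58.6%, 60.2% and 60.9% in AKO, and the groups did not overlap. The mean difference was 3.84 percentage points (56.0% ± 0.613 against 59.9% ± 1.19, SD, n = 3). Without COX2, COX3, ATP6, ATP8, ND3, ND4L and ND4, which overlap the copies on chromosome 1, it was 2.92 points (58.8% against 61.7%), a check chosen after seeing the data. COX1 was kept there although 31.3% of its bases lie in such a copy, and ND1 was kept too. ND1 alone changed by −5.21 percentage points in the means (11.3% in WT and 6.14% in AKO). The difference is therefore not read as a gain of the 6 mRNAs apart from ND1, and shares without ND1 were not examined.

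CYTB alone gained 3.93 percentage points in the means, with 16.4%, 16.7% and 16.9% of mitochondrially encoded counts in WT and 20.01%, 20.5% and 21.3% in AKO. COX2 held 1.71%, 2.00% and 1.87% in WT and 3.15%, 2.72% and 2.68% in AKO. COX3 held 1.15%, 1.32% and 1.61% in WT and 1.79%, 2.07% and 1.97% in AKO. These 3 mRNAs thus took a larger share in every AKO library than in any WT library. COX1 was lower in every AKO library on this scale, with 34.0%, 34.3% and 33.9% in WT and 32.2%, 33.5% and 33.2% in AKO. ATP6 held 2.07%, 1.84% and 2.26% in WT and 1.41%, 1.46% and 1.68% in AKO, again with no overlap. The ATP8 shares overlapped, from 0.0134% to 0.0537% in WT and from 0.00990% to 0.0223% in AKO. Shares are relative to the other mRNAs, and such shifts were not particular to the 6. In the means ND2 went from 11.2% in WT to 12.8% in AKO and ND5 from 8.11% to 9.76%, both higher in every AKO library. ND1 (11.3% to 6.14%), ND4 (8.16% to 6.69%) and ND4L (0.0980% to 0.0734%) were lower in every AKO library, and ND3 and ND6 overlapped. The 3 COX mRNAs together held 37.3% in WT and 37.7% in AKO, with overlapping groups.

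**Figure D3:**
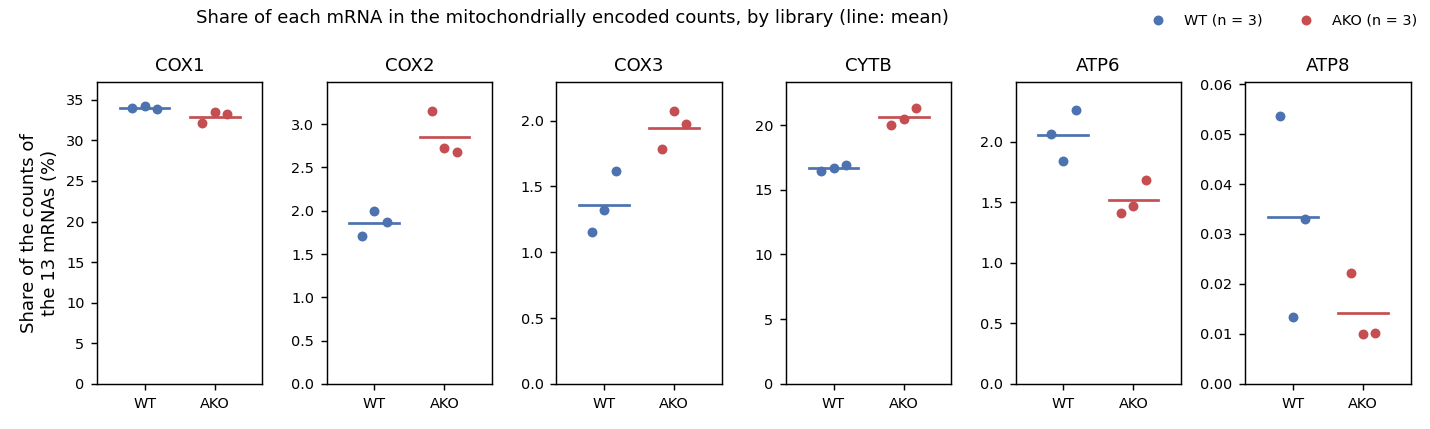
Share of each mRNA in the summed counts of the 13 mitochondrially encoded mRNAs (%, y axes from 0) in 3 WT and 3 AKO libraries, each a point, with the mean as a line. CYTB, COX2 and COX3 are higher and COX1 and ATP6 lower in every AKO library, with CYTB moving from 16.7% to 20.6% and ATP6 from 2.06% to 1.52% in the means.

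Ratios of counts within a library compare members directly. COX2 per COX1 read was 0.0503, 0.0583 and 0.0553 in WT and 0.0980, 0.0814 and 0.0808 in AKO. COX3 per COX1 was 0.0339, 0.0386 and 0.0476 in WT and 0.0555, 0.0620 and 0.0595 in AKO. Both ratios were higher in each AKO library than in any WT library, although these mRNAs encode subunits of the same complex. COX3 per COX2, by contrast, overlapped between groups (0.733 ± 0.112 in WT and 0.688 ± 0.106 in AKO, SD, n = 3, exact permutation p = 0.6). CYTB per COX1 lay between 0.483 and 0.499 in WT and between 0.613 and 0.643 in AKO. CYTB and ND5, which lie near each other on the genome with ND6 between them, kept a ratio of 2.06 ± 0.0989 in WT and 2.11 ± 0.0335 in AKO, with overlap (exact permutation p = 0.6).

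ATP6 and COX3 share a base on the precursor. ATP6 per COX3 was 1.80, 1.39 and 1.402 in WT and 0.790, 0.706 and 0.851 in AKO. The AKO values were well below the WT values, with a log2 ratio of the means of −0.97. Both genes have an identical nuclear copy, in which their order and spacing from COX2 (233 bases from the last matched base of COX2 to ATP6) are as on the mitochondrial genome. ATP8 per ATP6, 2 reading frames of 1 mRNA, was 0.0260, 0.00727 and 0.0145 in WT and 0.0158, 0.00676 and 0.00601 in AKO, which overlapped (exact permutation p = 0.4). WT replicate 1 had the highest ratio and WT replicate 2 lay close to the lower AKO libraries. Of 14 ratios examined among the 13 mRNAs, each that did not overlap had an exact permutation p = 0.1, the smallest possible.

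**Figure D4:**
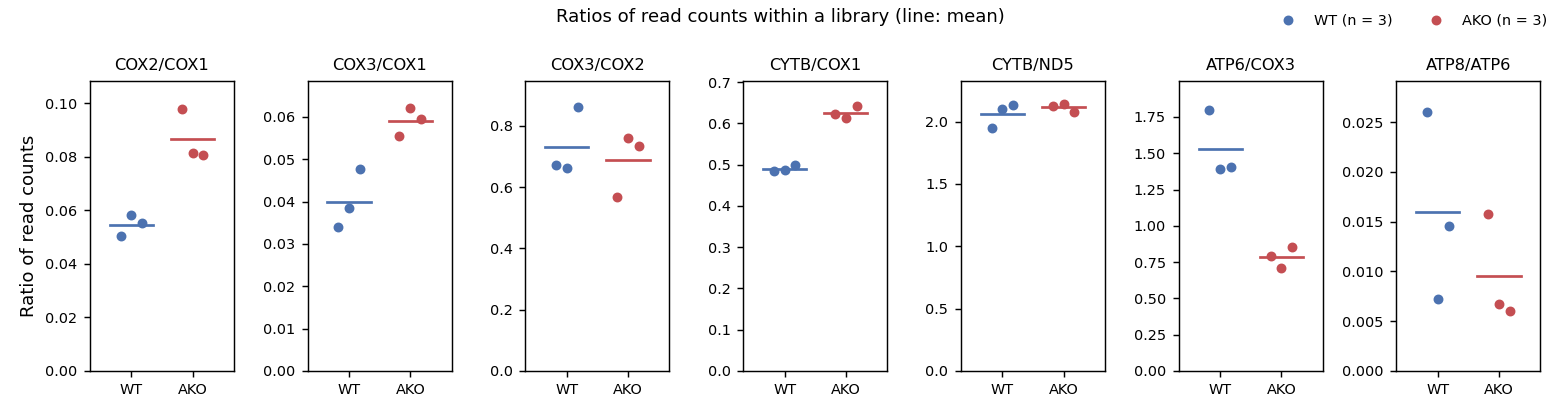
Ratio of the read counts of 2 mRNAs within each library (y axes from 0) for 7 pairs in 3 WT and 3 AKO libraries, each a point, with the mean as a line. COX2/COX1, COX3/COX1 and CYTB/COX1 are higher and ATP6/COX3 lower in every AKO library, and COX3/COX2, CYTB/ND5 and ATP8/ATP6 overlap.

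Per kilobase of bases not shared with another mRNA, COX1 had the highest level of the 6 in WT (46620 ± 2360 CPM per kb, SD, n = 3), followed by CYTB (30854 ± 1600), ATP6 (6810 ± 536), COX2 (5763 ± 700), COX3 (3682 ± 657) and ATP8 (430 ± 248). ATP6 and COX2 overlapped in their WT ranges, and the other neighbours in this order did not. ATP8 and ATP6 lie on the same mRNA, so their values here are levels of reads and not of separate mRNAs. In AKO the order was COX1 (54116 ± 7753 CPM per kb), CYTB (45692 ± 6134), COX2 (10511 ± 860), COX3 (6333 ± 1247), ATP6 (6043 ± 927) and ATP8 (214 ± 84.1). ATP6 thus came after COX2 and COX3 in AKO, and COX1 and CYTB overlapped, as did COX3 and ATP6. The 3 with an identical nuclear copy over more than 99% of their bases, COX2, ATP6 and COX3, were below COX1 and CYTB in both groups. In WT, ND3 and ND4L were the lowest of the complex I mRNAs. ND3 and ND4L, near-identical to a copy over 99.1% and 99.0% of their bases, were at 971 and 712 CPM per kb. ND4 (63.6%) was at 12587, and ND5, ND6, ND2 and ND1 (0% each) were at 9471, 20480, 22815 and 25054. Levels did not follow these percentages throughout. ATP8 was lowest of all with 21.1%, COX1 was highest of all with 31.3%, and ND5 (0%) was below ND4 (63.6%). What part the copies have in the levels or fold changes, those of COX2 and COX3 included, was not tested.

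The nuclear partners of these subunits were mostly lower or not called. Of 43 nuclear subunit genes of complexes III, IV and V, 25 were lower, 3 were higher and 15 were not called (edgeR), with a median of −0.44 on the log2 scale, where 17.5% of all genes tested were lower. The number lower was 15 without WT replicate 2 and 16 without AKO replicate 3. It was 25 with each other scaling over all or nuclear genes and 35 with scaling to the 13 mitochondrially encoded mRNAs. For complex III 7 of 9 were lower and 0 were higher, led by Uqcrh, the hinge protein that helps cytochrome c dock, at −0.93 (SE 0.16, adjusted p = 0.000830, edgeR), and Uqcr10, a small subunit, at −0.65. Uqcrfs1, the Rieske iron-sulfur protein that takes electrons next to cytochrome b, was at −0.56. The number lower in complex III was 3 without WT replicate 2 and 4 without AKO replicate 3.

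For complex IV 10 of 16 were lower and 1 was higher, and 5 were lower without WT replicate 2 and 5 without AKO replicate 3. Cox8b, the form of subunit 8 found in brown fat, heart and muscle, was at −0.90 (SE 0.14, adjusted p = 0.000333, edgeR) and Ndufa4, a subunit first assigned to complex I, at −0.68. The one higher was Cox6a2, the heart and skeletal muscle form of subunit 6a, with 3.84, 1.02 and 3.00 CPM in WT and 15.7, 22.1 and 27.0 CPM in AKO. For complex V 8 of 18 were lower and 2 were higher, and with scaling to the 13 mitochondrially encoded mRNAs 13 were lower. 2010107E04Rik, a small subunit gene, was at −0.79, while Atp5g1, which encodes a form of the membrane ring subunit, was at 1.59 and Atpif1, an inhibitor of ATP hydrolysis, at 0.87. Atp5g1 and Atpif1 were low in level (7.59 and 10.1 CPM in WT).

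Within a library, CYTB gave 5.56, 5.29 and 5.86 reads for each read of the 9 nuclear complex III genes in WT and 9.16, 12.5 and 12.7 in AKO. The 3 COX mRNAs gave 7.52, 7.57 and 8.51 reads for each read of the 16 nuclear complex IV genes in WT and 10.7, 14.7 and 14.5 in AKO. Both ratios were higher in every AKO library, by 2.05 and 1.69 times in the means. For complex V the ratio of ATP6 and ATP8 to 18 nuclear genes overlapped, at 0.276 ± 0.0414 in WT and 0.308 ± 0.0606 in AKO (SD, n = 3).

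**Figure D5:**
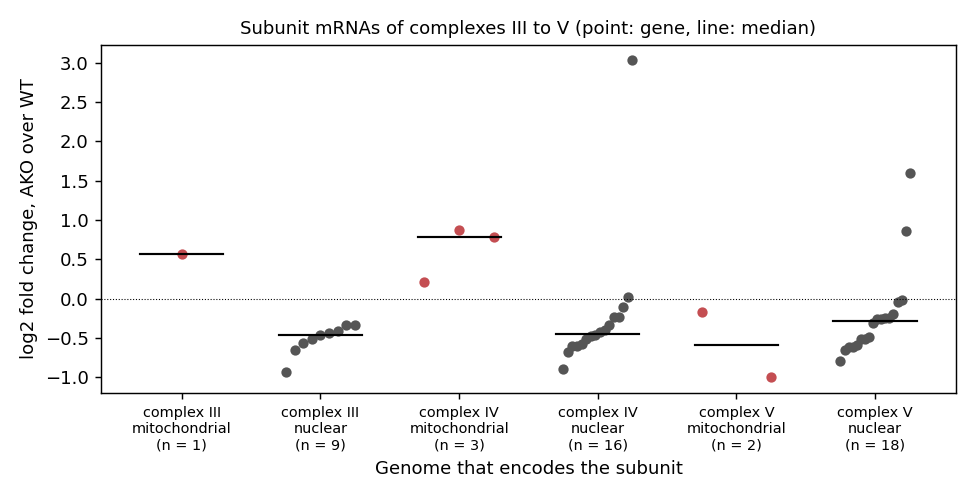
Log2 fold change of AKO over WT (y axis) of each subunit mRNA of complexes III, IV and V, grouped by complex and by the genome that encodes it (x axis), with the median as a line. The mitochondrial members of complexes III and IV lie above 0 (COX1 at 0.22 did not pass the test) and most nuclear members below it, with nuclear medians of −0.46, −0.45 and −0.28 for complexes III, IV and V.

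Among genes that help build these complexes, 10 of 21 complex IV assembly genes were lower and 1 was higher, with a median log2 fold change of −0.40, where 17.5% of all genes tested were lower. The higher call was lost with RLE factors, by DESeq2, by limma-voom and with scaling to the 13 mitochondrially encoded mRNAs. It was also lost without WT replicate 1, 2 or 3 and without AKO replicate 2. The number lower ran from 7, as with library totals, to 14, with scaling to the 13 mitochondrially encoded mRNAs. Those lower in the main fit included Pet100 (−1.01), needed for complex IV assembly, Taco1 (−0.72), an activator of COX1 translation, and Sco1 (−0.74), which delivers copper to COX2. For complex III 2 of 6 assembly genes were lower, Ttc19 (−0.81) and Uqcc3 (−0.70), and for complex V 1 of 4, Tmem70 (−0.66), and with so few genes neither count is read against that share. Of 15 genes for processing or stability of mitochondrial RNA, 6 were lower and 0 were higher, with a median of −0.33, and 3 were lower without WT replicate 3 or with library totals. Fastkd5, which in human cells is needed to cut out mRNAs such as COX1 and COX3 at junctions without a tRNA, was at 36.9, 33.1 and 35.0 CPM in WT and at 23.4, 17.9 and 18.1 CPM in AKO. Its groups did not overlap, and it changed by −0.82 on the log2 scale (SE 0.15, adjusted p = 0.000960, edgeR). Tbrg4 (Fastkd4), a regulator of mitochondrial mRNA stability, was at −0.70 and Trmt10c, a subunit of mitochondrial RNase P, at −0.47. Of 13 genes for transcription or replication of mitochondrial DNA, 5 were lower and 1 was higher. The number lower was 2 without WT replicate 1, 3 without WT replicate 2 and 3 with library totals, and 0 were higher without WT replicate 3. Mterf4, a partner in mitochondrial ribosome assembly, was at −0.77, Peo1, the mitochondrial DNA helicase, at −0.60 and Polg2, the accessory subunit of the DNA polymerase, at 1.18 from a WT level of 1.48 CPM.

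Most marker sums of the tissue and of other cells differed between genotypes. The 10 brown adipocyte markers were all detected and summed to 29600 to 32228 CPM in WT and 11976 to 18380 CPM in AKO, with 8 lower and 1 higher (5 lower when AKO replicate 3 or WT replicate 2 was left out). The sum is dominated by Ucp1 (mean 14912 CPM in WT and 4654 in AKO) and Fabp4 (9240 and 6591). Cidea fell by less (log2 fold change −0.38), Plin1 (−0.37) was not called and Pparg (0.48) was the one higher. The 16 skeletal muscle markers summed to 719, 300 and 733 CPM in WT and 1319, 2572 and 2535 CPM in AKO, with 15 higher, and macrophage markers (14 of 15 tested were higher) to 251 to 323 and 1016 to 1388 CPM. Fibroblast markers (7 of 8 higher) summed to 704 to 1069 and 1943 to 2497 CPM. Endothelial markers (2 of 8 lower and 0 higher) summed to 966 to 1017 and 802 to 959 CPM. Among them Kdr fell from a mean of 282 CPM in WT to 139 CPM in AKO. Pecam1 (log2 fold change 0.26) and Cdh5 (0.27) were not called. Erythroid markers (2 of 5 tested were higher) summed to 331 to 707 and 682 to 801 CPM, which overlapped. Lymphoid markers summed to at most 18.6 CPM in any library, with Cd3d and Ms4a1 at 0 in at least 1, as were the macrophage marker Trem2 and the erythroid marker Slc4a1. AKO 1, where the 6 mRNAs took the smallest share of all counts in AKO, also had the lowest muscle sum and the highest brown adipocyte sum of the AKO libraries. The part of these cell types in the results was not tested.

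Some libraries deviated from their group mean in the same direction for most members. AKO 2 was above the AKO mean in log2 CPM for 5 of the 6 mRNAs, all but ATP8, and AKO 1 was below it for the same 5. WT 1 was below the WT mean for all but ATP8, while WT 2, WT 3 and AKO 3 deviated in both directions. The mean log2 CPM of the 6 was 12.15, 11.99 and 12.20 in WT and 12.27, 12.46 and 12.28 in AKO. This mean weights the 6 equally, and ATP8, the least counted, deviated most widely in WT (0.85, −1.03 and 0.18 for WT 1 to 3). WT 2 had the lowest mean although COX1, COX2 and CYTB were highest there. In WT the mean therefore did not follow these more counted mRNAs. The nuclear genes most like this profile over the 6 libraries, out of 9644 ranked by Pearson's r, were Tmem209 (r = 0.996), Nhsl2 (0.993), Eif2a (0.992), Cdyl (0.990) and Hes1 (0.986). They were picked as the closest of many and share library and depth with the 6 mRNAs, so r is a description. Their log2 fold changes ran from 0.26 for Eif2a to 0.61 for Cdyl, and Cdyl alone passed the test (edgeR adjusted p = 0.0331).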

How the data were processed

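Counts came from mRNA of 6 mouse BAT samples, enriched with oligo(dT) and sequenced as DNA nanoballs per the labels. The authors deposited whole-number counts per gene, with 1 column per library and no normalization. The study's methods name STAR, HTSeq and DESeq2. Per the submitters' notes the build was mm10 and the tools were RSEM 1.3.1, Bowtie2 and DESeq2 1.4.5, with no roles. Sources used here do not give the treatment of multiply matching reads, the strand setting or the annotation. The table holds 0 mitochondrial rRNA or tRNA entries, and 27 symbols turned into dates (0.134% of counts).

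Total counts ranged from 6540619 to 8461685 per library, with 17714 to 18862 genes detected. Replicates differed by more than counting noise (chi-square per degree of freedom 5.56 to 19.2). The labels do not say whether replicates are separate animals, and the study describes them as 3 AKO mice and 3 controls.

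edgeR 4.0.16 (R 4.3.3; filterByExpr by group, TMM factors 0.930 to 1.08, glmQLFit and glmQLFTest with genotype as the term) tested 13007 of 22147 genes with a count above 0, with Benjamini-Hochberg adjustment over all of them and a threshold of 0.05. Removed genes held 0.226% of counts. Shares of a single mRNA and ratios were compared by exact two-sided permutation tests. Alternatives were RLE, upper-quartile, nuclear-only or mitochondrial scaling, library totals, DESeq2 1.42.0, limma-voom (limma 3.58.1), 2 other filters, a replicate block and leaving out each library. On simulated counts for the AKO and WT comparison (12800 genes), edgeR recovered 86% of 100 genes shifted by 1 on the log2 scale and 17% of 100 shifted by 0.5, with 8.85% false calls.

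Nuclear copies were sought with blastn 2.17.0 among GENCODE M21 transcripts (at least 90% identity and, except for ATP8, 100 bases). Matches on 1 chromosome were left out, so the list of copies is not complete for this search. A copy was called near-identical with at most 1 mismatch. From each other list the text names up to 3 called genes of lowest p, and the 5 genes most like the members by Pearson's r had a mean of at least 5 CPM. The members and all lists were chosen with earlier results of these data known. Tables and figures were made with pandas 2.3.3 and matplotlib 3.10.9 in Python 3.11.15.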

Additional observations from a re-analysis of the deposited data

How the results depend on the processing

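Calls of COX2 and COX3 as higher held under every alternative with scaling over all or nuclear genes, each left-out replicate included. The number of the 6 mRNAs called lower was 0 with upper-quartile factors, library totals, nuclear genes only for scaling, DESeq2, limma-voom or a mean of at least 5 CPM, 0 or 1 over the fits leaving out a replicate, and 2 (ATP6 and ATP8) with scaling to the 13 mitochondrially encoded mRNAs. The last scaling moved the median log2 fold change of all genes from 0.0088 to −0.24 and gave 1608 higher and 3459 lower genes, or 31.7% of calls higher in place of 53.6%, while library totals gave 65.2%. With a replicate left out under either this scaling (chosen after seeing the data) or the main one, 1 to 3 of the 6 were higher and 0 to 2 lower, among 1194 to 2732 higher and 1589 to 4704 lower genes. Under this scaling 2 of the 6 fits with a left-out replicate no longer called COX3. Directions that turned belonged to uncalled mRNAs. With mitochondrial scaling COX1 was at −0.048 and ND6 at −0.12. With upper-quartile factors ND3 was at 0.024 and ND4 at 0.041, with library totals at 0.062 and 0.075, with a mean of at least 5 CPM at 0.021 and 0.038, and with nuclear scaling ND4 was at 0.013. Over both sets of left-out fits COX1 ranged from −0.059 to 0.31, ND6 from −0.18 to 0.22, ND3 from −0.44 to 0.13 and ND4 from −0.32 to 0.11. As a percentage of nuclear counts in place of all counts, the summed share of the 6 differed by 6.87 points (14.4 against 21.3) in place of 4.20, by the construction of the smaller denominator. Leaving out a replicate gave 3.41 to 5.28 points of all counts and 3.35 to 4.51 of mitochondrially encoded counts. The cause of the other moves was not tested.

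With the replicate number as a block, 3 of the 6 were higher and 1 lower, as without it (ATP8 at −0.90, adjusted p = 0.00683), and 2636 genes were higher and 2290 lower. Deviations of same-numbered libraries correlated at −0.036, −0.0036 and 0.22 over 10128 genes, and those of differently numbered libraries at −0.26 to 0.22. With 3 libraries per group these values can neither show nor exclude that the numbers mark pairs. Shares over all entries of the mitochondrial genome were not run, since the table holds 0 rRNA or tRNA entries. ATP8 was the least counted of the 6, with 233 to 912 reads in WT and 176 to 417 in AKO. The part of depth in its changing call was not tested.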
